A study of Mus musculus with 16 samples.

Results

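The genes described here are the enzymes of cholesterol and fatty acid synthesis, together with the proteins that sense and move sterols, in mouse embryonic fibroblasts (MEFs) given the proteasome inhibitor MG132. The members were named by symbol, 37 in all, and fall into 4 roles: 18 enzymes of sterol synthesis, 5 genes of sterol sensing, 4 genes of sterol transport and 10 enzymes of fatty acid synthesis. Each gene was read from the probe set that matched it alone and had the highest mean signal over all arrays. That rule gave a value for 36 of the 37 members. The remaining one, Acat2, which makes the first intermediate of the sterol chain, was not analysed here. All 36 also passed the filter on dim signals, within 11451 genes tested in the whole series.

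The study set the response to a blocked proteasome in cells that lack CHOP, the stress-induced transcription factor encoded by Ddit3, against that in cells that have it. It used MEFs of 2 genotypes, CHOP-/- (knockout, KO) and CHOP+/+ (wild-type, WT), each either exposed to 1 µM MG132 for 8 hours or left unstressed, which gives the groups KO with MG132, KO untreated, WT with MG132 and WT untreated. Each group had 4 arrays from 4 culture plates, 16 arrays in all, and the cells were grown in high-glucose medium with serum. The labels give the untreated cells no treatment in one field and the solvent DMSO in another, so a solvent effect cannot be told apart from that of MG132 if they received none. The labels do not say how many embryos or cell isolates stand behind each genotype. A difference between the genotypes therefore cannot be told apart from a difference between isolates, and the p-values measure the spread between plates.

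Cholesterol is built from acetyl-CoA through mevalonate, isoprenoid units, squalene and lanosterol. When sterols are low in the endoplasmic reticulum (ER), the escort protein Scap carries the precursors of the transcription factors SREBP1 and SREBP2 (encoded by Srebf1 and Srebf2) to the Golgi, where they are cut and released to the nucleus. When sterols are high, the INSIG proteins hold Scap in the ER. SREBP2 is known mainly for turning on sterol enzymes and sterol uptake, and SREBP1 for turning on fatty acid enzymes.

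The regions just upstream of the transcription start are where SREBPs and the factor NF-Y, which binds the CCAAT box, are known to act on genes of this pathway. The windows below are from RefSeq on build GRCm38.p6, written 5′ to 3′ on the strand of the gene, and each ends at the base before the annotated start. Capitals mark matches to CCAAT on either strand (so CCAAT or ATTGG) and, in Hmgcs1, to the sterol regulatory element TCACNCCAC on either strand. The first 4 belong to genes that rose with MG132 in both genotypes: Cyp51 (chr5:4104698-4104947, minus strand), Insig1 (chr5:28071162-28071411, plus strand), Hsd17b7 (chr1:169969206-169969455, minus strand) and Hmgcs1 (chr13:119690101-119690350, plus strand). The last 2 belong to genes that fell in both genotypes: Mvk (chr5:114444019-114444268, plus strand), which also holds CCAAT boxes, and Elovl6 (chr3:129532136-129532385, plus strand), which holds none.
Cyp51: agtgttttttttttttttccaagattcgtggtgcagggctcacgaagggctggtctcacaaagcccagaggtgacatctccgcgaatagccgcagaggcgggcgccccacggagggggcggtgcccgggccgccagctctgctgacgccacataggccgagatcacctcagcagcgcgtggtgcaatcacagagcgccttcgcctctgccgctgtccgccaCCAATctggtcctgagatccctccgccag
Insig1: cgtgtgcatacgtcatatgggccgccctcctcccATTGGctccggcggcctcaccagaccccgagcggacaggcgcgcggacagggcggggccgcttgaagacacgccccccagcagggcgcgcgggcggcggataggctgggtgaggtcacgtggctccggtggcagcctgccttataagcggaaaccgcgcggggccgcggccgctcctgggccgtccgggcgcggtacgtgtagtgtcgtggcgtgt
Hsd17b7: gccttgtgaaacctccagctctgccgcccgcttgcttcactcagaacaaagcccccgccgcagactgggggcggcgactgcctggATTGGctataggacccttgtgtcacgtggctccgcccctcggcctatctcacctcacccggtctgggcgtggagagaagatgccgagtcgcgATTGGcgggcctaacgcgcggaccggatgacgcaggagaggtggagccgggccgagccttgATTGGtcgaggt
Hmgcs1: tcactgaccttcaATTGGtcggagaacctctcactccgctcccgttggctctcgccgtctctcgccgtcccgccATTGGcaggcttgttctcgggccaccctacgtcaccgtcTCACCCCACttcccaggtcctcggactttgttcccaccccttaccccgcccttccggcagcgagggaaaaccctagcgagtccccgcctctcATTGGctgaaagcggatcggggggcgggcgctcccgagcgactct
Mvk: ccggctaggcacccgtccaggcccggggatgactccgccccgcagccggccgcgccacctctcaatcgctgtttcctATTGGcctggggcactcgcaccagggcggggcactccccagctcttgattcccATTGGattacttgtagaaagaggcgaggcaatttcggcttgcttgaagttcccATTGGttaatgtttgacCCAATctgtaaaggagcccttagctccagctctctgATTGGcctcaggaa
Elovl6: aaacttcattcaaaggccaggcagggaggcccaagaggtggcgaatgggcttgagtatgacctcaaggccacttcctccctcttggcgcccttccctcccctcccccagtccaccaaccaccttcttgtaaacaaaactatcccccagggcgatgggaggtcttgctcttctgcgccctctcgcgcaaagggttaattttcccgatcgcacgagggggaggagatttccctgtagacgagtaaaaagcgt

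Of the 37 members, 29 matched a RefSeq promoter window of 300 bases, 250 before the start and 50 after it, and 24 of these had a single window. A CCAAT box was found in 23 of the 29 members, 79.3%, against 43.2% of the 9300 tested genes with a window. By role, 14 of 15 sterol synthesis members held one, 4 of 5 sterol sensing members, 1 of 2 sterol transport members and 4 of 7 fatty acid members. Among members that rose in both genotypes 12 of 13 held a CCAAT box, and among members that fell in both 4 of 7 did. Over all tested genes the share was 43.7% of those that rose in both genotypes and 42.6% of those that fell in both. The strict sterol element was found in Hmgcs1 alone, 3.45% of the members with a window, against 1.34% of the tested genes. The E-box CACGTG was present in 24.1% of the members and 11.9% of the tested genes, the GC box GGGCGG in 82.8% and 69.9%, and the amino acid response element core TGATGNAA, a form of site bound by ATF4 and CHOP dimers, in 6.9% and 2.66%. Genes with several windows had more bases to match, and the motifs may overlap one another. These are letter matches in a short window and not measured binding.

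MG132 was followed by higher signals for most sterol enzymes in both genotypes, led by Cyp51, while Mvk, Ebp and Dhcr7 fell in both. In KO cells 12 of the 17 measured sterol synthesis genes rose and 3 fell, with a median log2 change of 0.47. In WT cells 12 rose and 4 fell, with a median of 0.43. Over all 36 members, 21 rose and 7 fell in KO cells (median 0.33), against a background of 25.7% of all tested genes higher and 36.8% lower (median -0.07). In WT cells 22 rose and 9 fell (median 0.31), against a background of 27.2% higher and 36.9% lower (median -0.07). With each array centred on the median of the tested genes, a scaling added after seeing the data, the split in WT cells was 26 higher and 6 lower, and the median of all tested genes moved to 0.133. Calls of at least 2-fold were few: 5 of 36 members in KO cells, against 8.64% of all tested genes, and 2 in WT cells, against 10.4%.

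**Figure D1:**
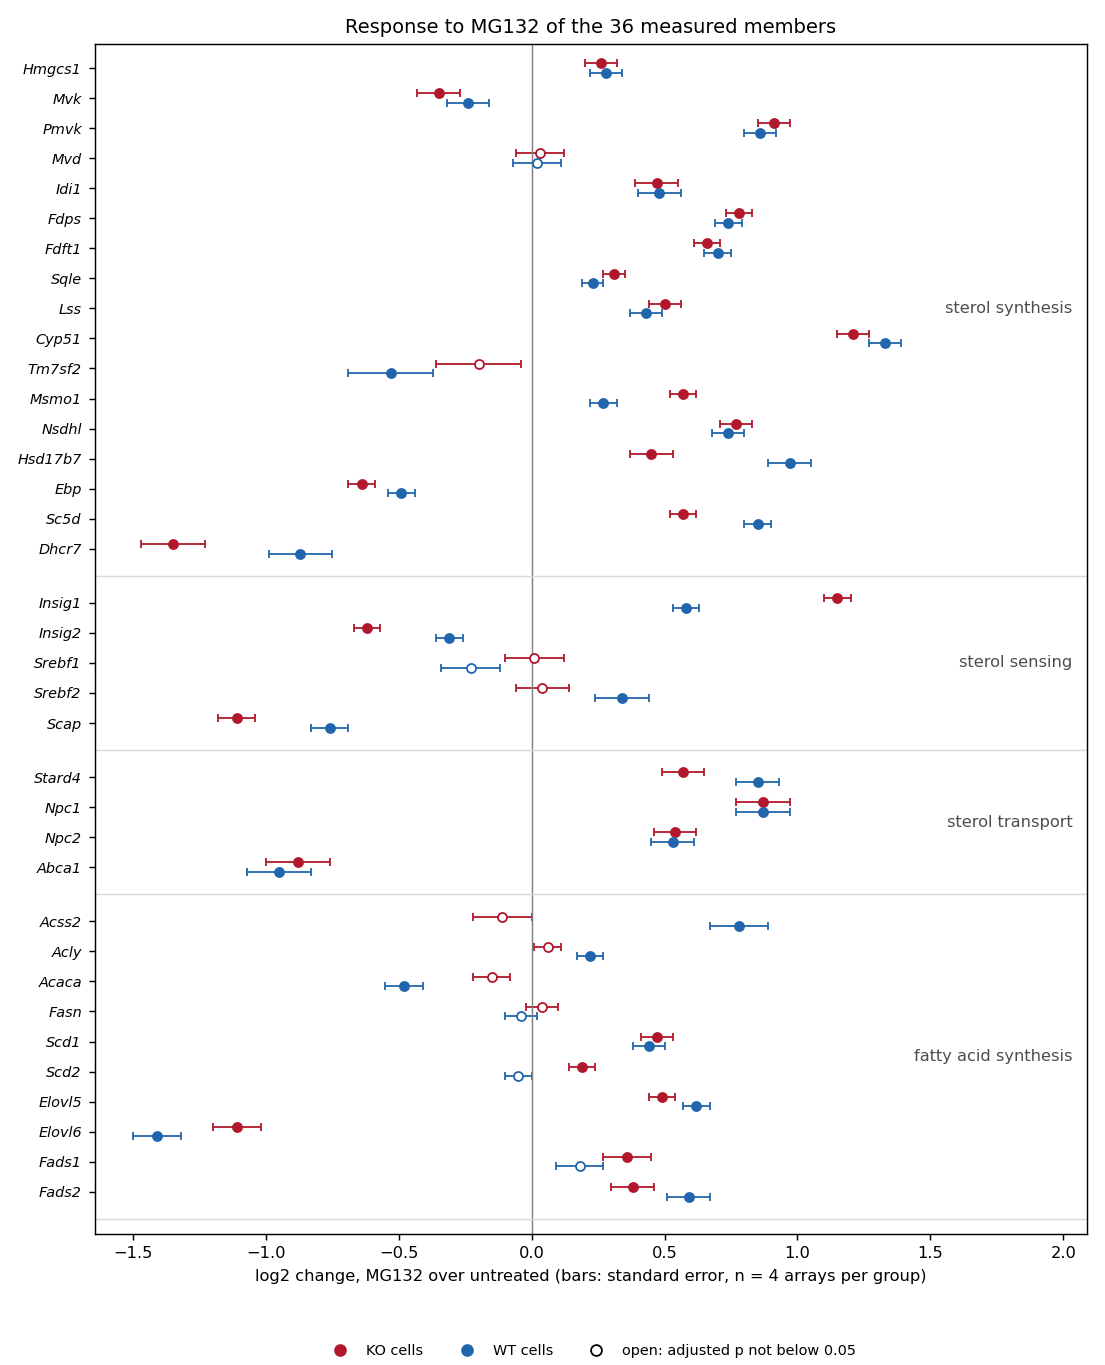
Response to MG132 of the 36 measured members, grouped by role, as the log2 change of MG132 over untreated cells (x axis) with its standard error; KO cells are red and WT cells blue, and open points did not pass an adjusted p of 0.05. Most sterol synthesis genes lie to the right of 0 in both genotypes (12 called higher in each), and Elovl6, Dhcr7, Scap and Abca1 lie to the left.

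Both genotypes gave the same set of moves for most members. In both responses 19 members rose, against a background of 18.7% of all tested genes, and 7 fell, against 27.8%. Calls in opposite directions were made for 0 members by limma, against a background of 2.78%, which is near that background for a set of this size. Tm7sf2 and Acaca fell in WT cells alone by this test, Srebf2, Acss2 and Acly rose in WT cells alone, and Scd2 and Fads1 rose in KO cells alone, although a call in only one genotype does not show that the responses differ. The KO and WT responses, which share no array, had a Pearson correlation of 0.9 and a Spearman correlation of 0.86 over the 36 members, and 0.73 by both measures over all tested genes. Genes are not independent replicates, so these values only describe the 2 sets.

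The genes of the mevalonate part of the chain moved by different amounts. Hmgcs1, which makes HMG-CoA, rose by 0.26 ± 0.06 (log2 change ± standard error, n = 4 arrays per group, as for all log2 changes here) in KO cells and by 0.28 ± 0.06 in WT cells. Mvk, mevalonate kinase, fell by 0.35 ± 0.08 in KO cells and by 0.24 ± 0.08 in WT cells. Pmvk, the next kinase, rose by 0.91 ± 0.06 in KO cells and by 0.86 ± 0.06 in WT cells, so neighbouring steps moved in opposite directions. Mvd, the decarboxylase that ends this stretch, had values of 0.03 ± 0.09 in KO cells (adjusted p = 0.813) and 0.02 ± 0.09 in WT cells (adjusted p = 0.861). The fall of Mvk in WT cells, whose arrays overlapped those of untreated WT cells, did not pass the test after quantile normalization (-0.13) or with the tested genes centred (-0.03). A second Mvk probe set changed by -0.685 in KO cells and by -0.462 in WT cells.

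The measured isoprenoid and squalene enzymes rose in both genotypes with the probe sets used. Idi1, isopentenyl diphosphate isomerase, rose by 0.47 ± 0.08 in KO cells and by 0.48 ± 0.08 in WT cells. Fdps, farnesyl diphosphate synthase, averaged 22110 ± 1000 signal units in KO cells with MG132 and 12840 ± 599 in untreated KO cells (mean ± SD, n = 4), and 18500 ± 1100 and 11040 ± 660 in WT cells with and without MG132. Its log2 change was 0.78 ± 0.05 in KO cells and 0.74 ± 0.05 in WT cells. Fdft1, squalene synthase, rose by 0.66 ± 0.05 in KO cells and 0.70 ± 0.05 in WT cells. Sqle, squalene epoxidase, rose by less, 0.31 ± 0.04 in KO cells and 0.23 ± 0.04 in WT cells. Lss, which closes the ring to lanosterol, rose by 0.50 ± 0.06 in KO cells and 0.43 ± 0.06 in WT cells. For Idi1, Fdps, Fdft1, Sqle and Lss every MG132 array lay above every untreated array of its genotype. With the mean over all probe sets, which takes in dim ones, Fdft1 (0.39 in KO cells, 0.26 in WT cells) and Fdps in WT cells (0.26) did not pass.

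Cyp51, the lanosterol demethylase, had the highest rise of the sterol enzymes. Its signals were 13910, 13100, 13320 and 12070 in KO cells with MG132, against 5495, 5434, 5559 and 6158 in untreated KO cells. In WT cells they were 10080, 10220, 11070 and 11200 with MG132, against 4697, 4146, 3988 and 4061 untreated. The treated and untreated arrays were far apart in both genotypes. The log2 change was 1.21 ± 0.06 in KO cells (adjusted p = 6.83e-13) and 1.33 ± 0.06 in WT cells (adjusted p = 1.18e-13), and the difference between them, -0.12 ± 0.08, did not pass the test (adjusted p = 0.299). The other 2 probe sets of Cyp51 changed by 1.232 and 1.095 in KO cells and by 1.278 and 1.016 in WT cells. Its promoter, printed above, holds 1 CCAAT box and no strict sterol element.

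**Figure D2:**
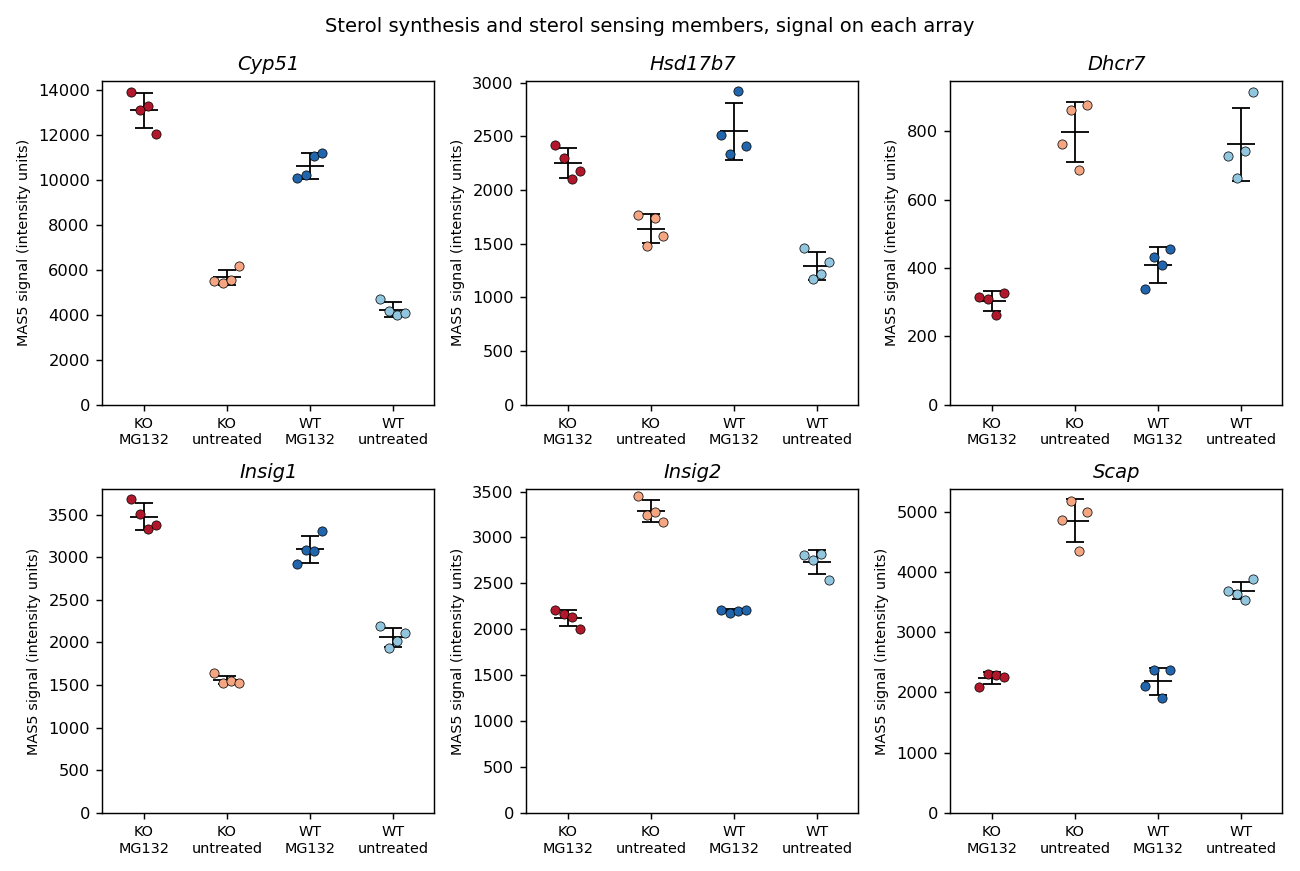
Signal of 6 sterol synthesis and sterol sensing genes on each array (y axis, MAS5 signal in intensity units from 0), by group from KO with MG132 at the left to WT untreated at the right; points are arrays, and bars are the mean and SD of 4 arrays. Cyp51, Hsd17b7 and Insig1 lie higher in both MG132 groups, and Dhcr7, Insig2 and Scap lie lower.

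After lanosterol the enzymes split. Tm7sf2, a sterol reductase, was the dimmest member of this role and averaged 217 ± 43 in KO cells with MG132 and 250.7 ± 34.3 in untreated KO cells, and 168.8 ± 16.1 and 252.5 ± 38.3 in WT cells with and without MG132. Its fall of 0.53 ± 0.16 in WT cells passed the test (adjusted p = 0.00608), while the change of -0.20 ± 0.16 in KO cells did not (adjusted p = 0.275). Their difference of 0.33 ± 0.22 also missed the threshold (adjusted p = 0.303), and centring on the median of the tested genes removed the call in WT cells. Nsdhl, the decarboxylating sterol dehydrogenase, rose by 0.77 ± 0.06 in KO cells and 0.74 ± 0.06 in WT cells. Msmo1, the methyl sterol oxidase, rose more in KO cells, by 0.57 ± 0.05, than in WT cells, by 0.27 ± 0.05, a difference of 0.30 ± 0.07 (adjusted p = 0.0045). A second, dim probe set of Msmo1 changed by 0.59 in KO cells and by -1.037 in WT cells.

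Hsd17b7, the sterol ketone reductase, had the largest difference between the responses among the sterol enzymes. Its signals were 2418, 2293, 2099 and 2176 in KO cells with MG132, against 1770, 1481, 1734 and 1574 in untreated KO cells. The WT signals were 2516, 2333, 2926 and 2410 with MG132, against 1459, 1165, 1217 and 1324 untreated. Treated arrays lay above untreated arrays in both genotypes, with a wider gap in WT cells. The rise was 0.45 ± 0.08 in KO cells (adjusted p = 6.76e-05) and 0.97 ± 0.08 in WT cells (adjusted p = 2.04e-09), and KO minus WT was -0.52 ± 0.12 (adjusted p = 0.00208). With probe sets whose names carry no suffix (s, x or a) the difference was -0.22 and did not pass the test. That setting took the brightest such probe set. Another Hsd17b7 probe set without a suffix changed by 0.626 in KO cells and 1.278 in WT cells, and a dimmer one by 0.227 and 0.565.

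Ebp, Sc5d and Dhcr7 act in sequence near the end of the pathway and did not move together. Ebp, the sterol isomerase, fell by 0.64 ± 0.05 in KO cells and by 0.49 ± 0.05 in WT cells. Sc5d, the desaturase that follows it, rose by 0.57 ± 0.05 in KO cells and 0.85 ± 0.05 in WT cells, with a difference of -0.28 ± 0.07 (adjusted p = 0.00367) that did not pass after median centring. Dhcr7, which makes cholesterol from its last precursor in one branch of the pathway, had signals of 314.6, 307.9, 260.7 and 327.3 in KO cells with MG132, against 763.4, 861.6, 687.9 and 876.2 in untreated KO cells. In WT cells the Dhcr7 signals were 336.8, 433, 408.8 and 456.2 with MG132, against 726.1, 663.1, 742.8 and 914.2 untreated. No treated array reached an untreated one. Dhcr7 fell by 1.35 ± 0.12 in KO cells (adjusted p = 3.84e-09) and by 0.87 ± 0.12 in WT cells (adjusted p = 1.7e-06). The difference of -0.48 ± 0.17 (adjusted p = 0.036) lost its call in 9 of the 16 fits that left out 1 array, among them those without WT untreated replicate 2 (-0.42) or KO untreated replicate 4 (-0.43).

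Among the sensing genes, Insig1 rose and Scap and Insig2 fell in both genotypes. Of the 5, 1 rose and 2 fell in KO cells (median 0.01), against a background of 25.7% of all tested genes higher and 36.8% lower. In WT cells 2 rose and 2 fell (median -0.23), against 27.2% higher and 36.9% lower. Insig1, an ER anchor of Scap that is itself known as an SREBP target, had signals of 3690, 3503, 3337 and 3376 in KO cells with MG132, against 1636, 1527, 1544 and 1528 in untreated KO cells. Signals in WT cells were 2917, 3082, 3079 and 3304 with MG132, against 2193, 1940, 2011 and 2105 untreated. Untreated KO arrays were the lowest of the 4 groups and treated KO arrays the highest, with no overlap between any of the groups. The rise was 1.15 ± 0.05 in KO cells (adjusted p = 4.06e-13) and 0.58 ± 0.05 in WT cells (adjusted p = 1.02e-08), and the difference of 0.57 ± 0.08 passed the test (adjusted p = 1.82e-05). It kept that call under every alternative run.

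Insig2, the second ER anchor, had signals of 2205, 2161, 2133 and 1998 in KO cells with MG132, against 3452, 3243, 3273 and 3168 in untreated KO cells. WT cells gave 2214, 2176, 2199 and 2212 with MG132, against 2804, 2753, 2822 and 2539 untreated. With this probe set the 2 treated groups overlapped, and the untreated KO arrays stood above the untreated WT arrays. Insig2 fell by 0.62 ± 0.05 in KO cells (adjusted p = 1.05e-09) and by 0.31 ± 0.05 in WT cells (adjusted p = 1.72e-05), with a difference of -0.32 ± 0.07 (adjusted p = 0.00201). That difference did not pass after median centring (-0.22), and the fall in WT cells did not pass with the tested genes centred (-0.10). The other 2 Insig2 probe sets had close untreated means (1424 in KO and 1414 in WT cells, and 2224 and 2180). With MG132 their means were lower in KO cells (964.5 against 1208, and 1588 against 2051). They changed by -0.556 and -0.479 in KO cells and by -0.218 and -0.088 in WT cells.

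Scap, the SREBP escort, followed the same shape as the Insig2 probe set used. Its signals were 2085, 2311, 2285 and 2259 in KO cells with MG132, against 4868, 5189, 4351 and 5008 in untreated KO cells. In WT cells they were 2101, 2367, 1911 and 2368 with MG132, against 3691, 3639, 3545 and 3879 untreated. Untreated KO arrays were all above untreated WT arrays, and the 2 treated groups overlapped. Scap fell by 1.11 ± 0.07 in KO cells (adjusted p = 2.02e-11) and by 0.76 ± 0.07 in WT cells (adjusted p = 5.67e-09). The difference of -0.36 ± 0.10 (adjusted p = 0.00851) was -0.26 after median centring and -0.28 with the mean over all probe sets, where it did not pass.

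Of the genes of the SREBPs themselves, Srebf2 rose in WT cells, and the other changes did not pass the test. Srebf1 had signals of 2012, 2896, 2275 and 2658 in KO cells with MG132, against 2172, 2692, 2222 and 2647 in untreated KO cells. In WT cells the Srebf1 signals were 2258, 2907, 2251 and 2958 with MG132, against 2811, 3152, 2956 and 3176 untreated. These groups overlapped within each genotype, and the changes of 0.01 ± 0.11 in KO cells (adjusted p = 0.949) and -0.23 ± 0.11 in WT cells (adjusted p = 0.071) did not pass. The WT change did pass without WT replicate 2 (-0.29) or 4 (-0.30) with MG132, without KO replicate 1 with MG132 (-0.23), and in a fit of the compared groups alone. Srebf2 had signals of 2815, 3146, 3137 and 3280 in KO cells with MG132, against 2672, 3282, 2729 and 3426 in untreated KO cells. In WT cells the Srebf2 signals were 2496, 2936, 2520 and 2928 with MG132, against 2161, 2345, 1715 and 2386 untreated. The KO groups overlapped, whereas the treated WT arrays all lay above the untreated ones. Srebf2 changed by 0.04 ± 0.10 in KO cells (adjusted p = 0.758) and rose by 0.34 ± 0.10 in WT cells (adjusted p = 0.00451), with a difference of -0.31 ± 0.14 that missed the threshold (adjusted p = 0.109) but passed with the tested genes centred (-0.36). With the mean over all probe sets the rise in WT cells was 0.16 and did not pass. A second Srebf2 probe set changed by -0.225 in KO cells and -0.015 in WT cells. In each of the 4 groups replicates 2 and 4 had higher signals of both Srebf1 and Srebf2 than replicates 1 and 3. The labels name no batch, and the cause was not tested. With the replicate number as a block in the fit, the WT change of Srebf1 (-0.23) passed. So did the differences between the responses of Srebf1 (0.24) and Srebf2 (-0.31).

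Sterol transport genes rose with MG132 except Abca1. Of these 4 genes 3 rose and 1 fell in each genotype, with medians of 0.55 in KO cells and 0.69 in WT cells. The background was 25.7% of all tested genes higher and 36.8% lower in KO cells, and 27.2% and 36.9% in WT cells. Npc1, which moves cholesterol out of the lysosome, had signals of 774.2, 785, 1005 and 707.3 in KO cells with MG132, against 397.2, 427.9, 470.4 and 453.3 in untreated KO cells. The WT signals were 1278, 1150, 1106 and 1271 with MG132, against 767.4, 624, 578.5 and 647.5 untreated. All treated arrays lay above the untreated arrays of the same genotype. The rise was 0.87 ± 0.10 in KO cells (adjusted p = 4.13e-07) and 0.87 ± 0.10 in WT cells (adjusted p = 3.95e-07). Npc2, its partner in the lysosome, rose by 0.54 ± 0.08 in KO cells and 0.53 ± 0.08 in WT cells. Stard4, a sterol carrier of the cytosol, rose by 0.57 ± 0.08 in KO cells and 0.85 ± 0.08 in WT cells, and the difference of -0.28 ± 0.11 missed the threshold (adjusted p = 0.0607). It passed under 3 other settings (-0.34 to -0.21) and on leaving out KO replicate 1 (-0.32) or WT replicate 4 (-0.33) with MG132 or WT untreated replicate 3 (-0.31).

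Abca1, the pump that exports cholesterol from the cell, went the other way. Its signals were 107.5, 111.5, 148.4 and 138.4 in KO cells with MG132, against 228.8, 266.5, 249.9 and 230.6 in untreated KO cells. Signals in WT cells were 400.6, 388.5, 416.9 and 442.4 with MG132, against 930.5, 741.2, 815 and 766.8 untreated. The 4 groups formed 4 separate levels, with treated KO cells lowest and untreated WT cells highest. Abca1 fell by 0.88 ± 0.12 in KO cells (adjusted p = 1.87e-06) and by 0.95 ± 0.12 in WT cells (adjusted p = 5.7e-07). Its lower signals sit closer to the 16 units added before taking logs, and with the mean over all 3 probe sets, 2 of them dim, the fall in KO cells was 0.28 and did not pass.

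**Figure D3:**
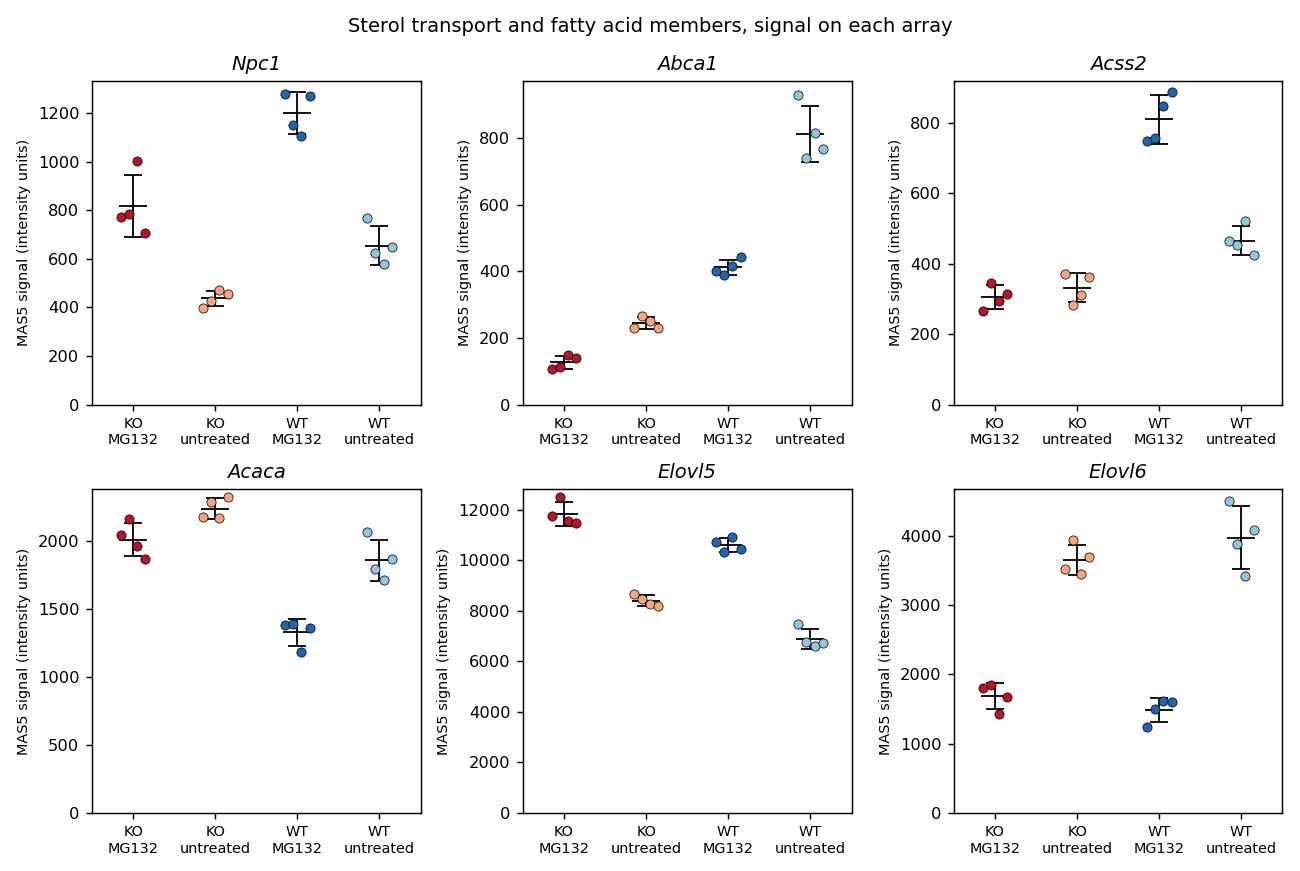
Signal of 2 sterol transport and 4 fatty acid genes on each array (y axis, MAS5 signal in intensity units from 0), by group from KO with MG132 at the left to WT untreated at the right; points are arrays, and bars are the mean and SD of 4 arrays. Abca1 forms 4 separate levels, Elovl6 lies lower in both MG132 groups, and Acss2 lies apart in WT cells with MG132.

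The fatty acid branch had a lower median response than sterol synthesis in both genotypes. Of its 10 genes 5 rose and 1 fell in KO cells, with a median log2 change of 0.13, and 5 rose and 2 fell in WT cells, with a median of 0.20. The background was 25.7% of all tested genes higher and 36.8% lower in KO cells. In WT cells it was 27.2% higher and 36.9% lower, with a median of -0.07 in each genotype. The sterol synthesis medians given above were 0.47 and 0.43. Elovl5, Fads2 and Scd1 rose in both genotypes and Elovl6 fell in both. The medians of the 2 branches are descriptions of sets of unequal size, and their difference was not tested.

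Acss2 and Acly supply cytosolic acetyl-CoA. Acss2, which makes it from acetate, had signals of 265.5, 345.1, 294.3 and 315 in KO cells with MG132, against 370.9, 283.1, 311.3 and 361.1 in untreated KO cells. WT cells gave 749, 756.2, 849.8 and 888.3 with MG132, against 463.5, 453.8, 521.4 and 424.6 untreated. Only the treated WT arrays stood apart from their untreated counterparts, and all KO arrays lay below all WT arrays. The change was -0.11 ± 0.11 in KO cells (adjusted p = 0.39) and 0.78 ± 0.11 in WT cells (adjusted p = 3.23e-06), and the difference of -0.89 ± 0.16 passed the test (adjusted p = 0.000246). A second probe set of Acss2 changed by -0.383 in KO cells and 0.627 in WT cells. Acly, which makes acetyl-CoA from citrate, had a change of 0.06 ± 0.05 in KO cells (adjusted p = 0.24) and rose by 0.22 ± 0.05 in WT cells (adjusted p = 0.000232), with a difference of -0.16 ± 0.06 that missed the threshold (adjusted p = 0.07). The mean over all probe sets gave 0.04 for Acly in WT cells, which did not pass, and the difference passed without KO replicate 2 with MG132 or WT untreated replicate 1 (-0.19 in each).

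Acaca and Fasn carry out the first committed step and the chain building. Acaca, acetyl-CoA carboxylase, had signals of 2043, 2158, 1960 and 1868 in KO cells with MG132, against 2174, 2280, 2163 and 2320 in untreated KO cells. In WT cells they were 1381, 1387, 1180 and 1354 with MG132, against 2062, 1790, 1710 and 1861 untreated. Treated arrays were below untreated arrays in both genotypes, with a small gap in KO cells. The change was -0.15 ± 0.07 in KO cells (adjusted p = 0.0534) and -0.48 ± 0.07 in WT cells (adjusted p = 3.1e-06), and the difference of 0.33 ± 0.10 passed the test (adjusted p = 0.0146). A dimmer Acaca probe set changed by -0.03 in KO cells and 0.50 in WT cells, so the fall in WT cells holds for the brighter probe set only. The KO change of -0.15 lay close to the threshold and passed in several other fits, among them that of the compared groups alone and those without KO replicate 2 (-0.19) or WT replicate 3 (-0.15) with MG132. Fasn, fatty acid synthase, averaged 8077 ± 250 in KO cells with MG132 and 7836 ± 414 in untreated KO cells, and 6340 ± 329 and 6520 ± 623 in WT cells with and without MG132. Its changes of 0.04 ± 0.06 in KO cells (adjusted p = 0.54) and -0.04 ± 0.06 in WT cells (adjusted p = 0.613) did not pass.

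The genes that lengthen and desaturate fatty acids held both the steepest fall and several rises. Elovl6, which lengthens saturated chains, had signals of 1804, 1849, 1423 and 1678 in KO cells with MG132, against 3526, 3946, 3454 and 3687 in untreated KO cells. The WT signals were 1234, 1493, 1614 and 1601 with MG132, against 4509, 3878, 3417 and 4082 untreated. Treated arrays were all far below untreated ones. Elovl6 fell by 1.11 ± 0.09 in KO cells (adjusted p = 2.63e-09) and by 1.41 ± 0.09 in WT cells (adjusted p = 6.26e-11). The difference of 0.30 ± 0.13 missed the threshold (adjusted p = 0.104) but passed without KO replicate 3 with MG132 (0.38) or WT untreated replicate 3 (0.37).

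Elovl5, which lengthens polyunsaturated chains, had signals of 11750, 12520, 11550 and 11480 in KO cells with MG132, against 8668, 8462, 8289 and 8176 in untreated KO cells. Signals in WT cells were 10740, 10350, 10940 and 10440 with MG132, against 7473, 6748, 6605 and 6734 untreated. Treated arrays were all above untreated ones in both genotypes. Elovl5 rose by 0.49 ± 0.05 in KO cells (adjusted p = 8.16e-09) and by 0.62 ± 0.05 in WT cells (adjusted p = 2.02e-10). Fads2, the desaturase that opens polyunsaturated synthesis, rose by 0.38 ± 0.08 in KO cells and 0.59 ± 0.08 in WT cells. Fads1, the desaturase that acts later, rose by 0.36 ± 0.09 in KO cells (adjusted p = 0.0016), and its change of 0.18 ± 0.09 in WT cells did not pass (adjusted p = 0.0957). Without WT untreated replicate 1, where Fads1 read 6193 against 4214 to 4414 on the other 3 arrays, the WT change was 0.30 and passed. With the mean over both probe sets the KO change of Fads1 was 0.20 and did not pass.

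Scd1 and Scd2 introduce the double bond of monounsaturated fatty acids. Scd1 rose by 0.47 ± 0.06 in KO cells and 0.44 ± 0.06 in WT cells. Scd2 averaged 35380 ± 1330 in KO cells with MG132 and 30920 ± 1700 in untreated KO cells, and 24140 ± 1240 and 25070 ± 1340 in WT cells with and without MG132. It rose by 0.19 ± 0.05 in KO cells (adjusted p = 0.0022), its change of -0.05 ± 0.05 in WT cells did not pass (adjusted p = 0.359), and the difference was 0.25 ± 0.07 (adjusted p = 0.0122). These Scd2 values depended on scaling: quantile normalization gave 0.02 in KO cells and -0.22 in WT cells, and centring on the median of the tested genes turned the WT change to 0.15. The difference did not pass under that centring (0.19) or with the mean over all probe sets (0.08). The other Scd2 probe sets changed by 0.284 and 0.171 in KO cells and by -0.002 and 0.476 in WT cells.

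The difference between the 2 responses was past the threshold for 10 of the 36 members. KO minus WT was positive for 4 (Msmo1, Insig1, Acaca and Scd2), against a background of 14.2% of all tested genes, and negative for 6 (Hsd17b7, Sc5d, Dhcr7, Insig2, Scap and Acss2), against a background of 14.1%. These shares are near the background. Median centring of each array gave 4 positive and 2 negative calls, and centring on the median of the tested genes gave 3 and 10. With the probe sets used, positive values stand for a higher rise in KO cells in Msmo1 and Insig1. They stand for a rise called in KO cells alone in Scd2 and for a smaller fall in Acaca. Negative values stand for a smaller rise in Hsd17b7 and Sc5d, a deeper fall in Dhcr7, Insig2 and Scap, and a rise seen in WT cells alone in Acss2.

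Before any treatment, KO cells had higher signals than WT cells for 9 of 17 sterol enzymes and 8 of 10 fatty acid enzymes. Signals of all 4 sterol transport genes were lower in KO cells. In untreated cells 20 of the 36 members were higher in KO cells and 10 lower, against a background of 28.6% of all tested genes higher and 26.9% lower. With MG132, 16 were higher and 9 lower, against 30.7% higher and 28.1% lower. The 2 genotype comparisons use different arrays. Of the 17 sterol synthesis genes, 8 were higher and 4 lower in KO cells with MG132 (median 0.24), and 9 were higher and 3 lower untreated (median 0.18). Of the 10 fatty acid genes, 7 were higher and 1 lower with MG132 (median 0.18), and 8 were higher and 1 lower untreated (median 0.27). The mean over all probe sets gave untreated medians of -0.01 (sterol synthesis) and 0.18 (fatty acids), with 13 members higher. Probe sets without a suffix gave an untreated sterol median of 0.00, and 0.01 for Hsd17b7 in place of 0.34. The untreated Scd1 difference (0.15) lost its call in 5 fits with other settings and in 5 that left out 1 array. All 4 transport genes were lower in KO cells, with a median of -0.56 with MG132 and -0.51 untreated.

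**Figure D4:**
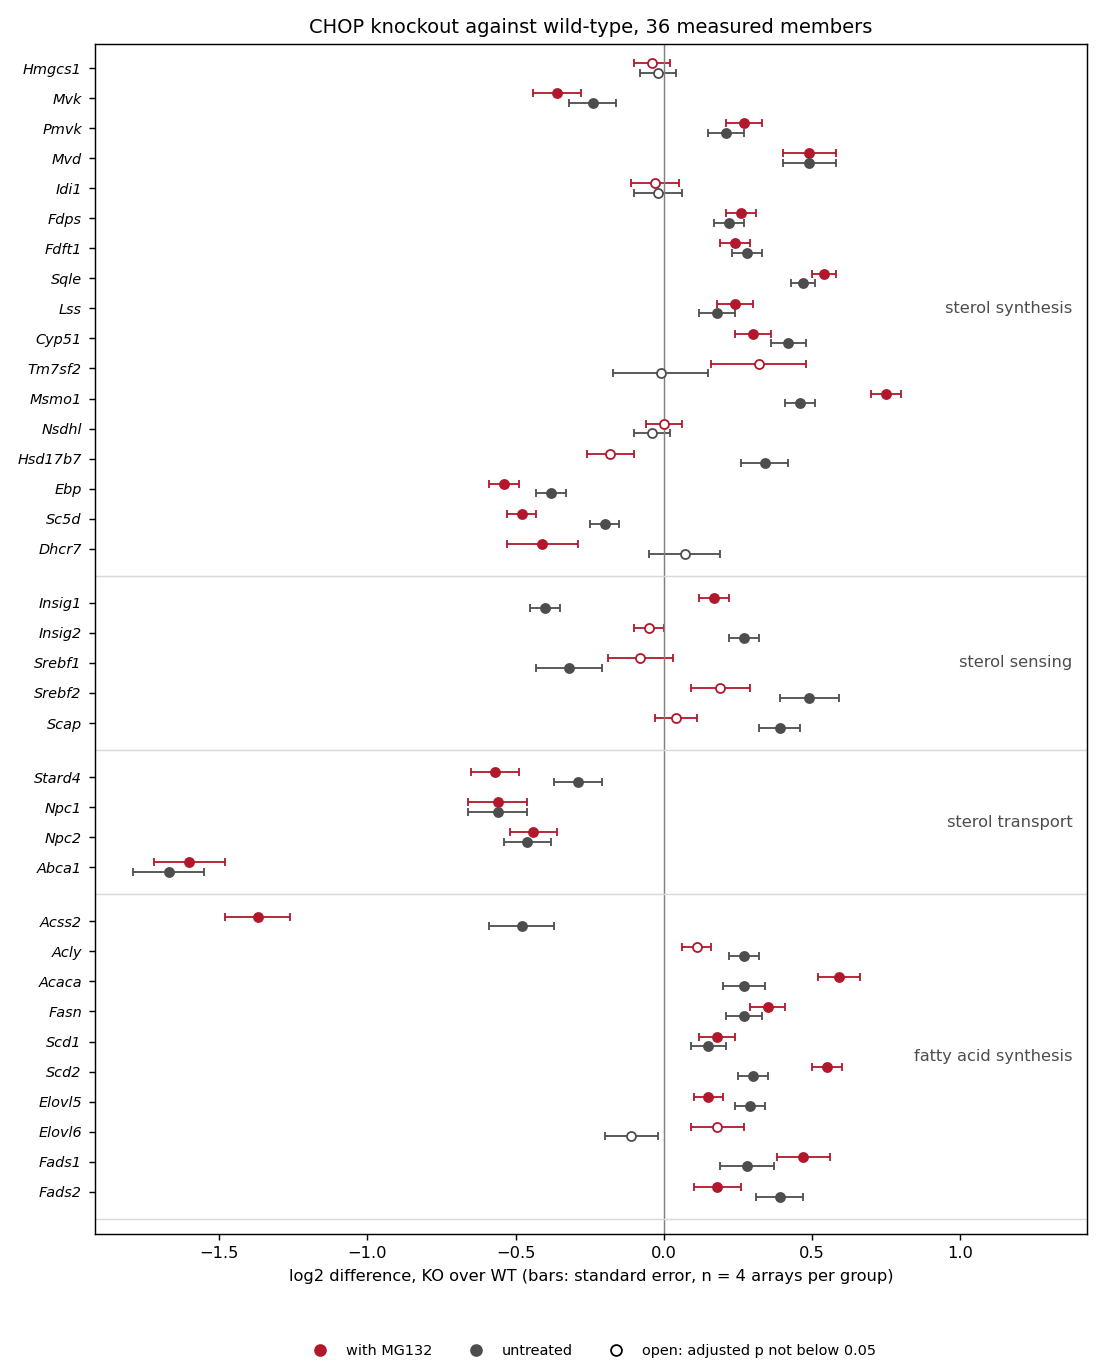
Signal of KO over WT cells for the 36 measured members, grouped by role, as a log2 difference (x axis) with its standard error; red points compare cells with MG132, grey points untreated cells, and open points did not pass an adjusted p of 0.05. The 4 sterol transport genes lie to the left of 0 at both treatments, Abca1 farthest, and most fatty acid genes other than Acss2 lie to the right.

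Sqle, Msmo1 and Mvd showed the highest genotype differences among the sterol enzymes. Sqle averaged 11800 ± 100 in KO cells and 8108 ± 390 in WT cells with MG132, and 9542 ± 298 and 6891 ± 59.2 in untreated KO and WT cells. Its difference was 0.54 ± 0.04 with MG132 (adjusted p = 4.22e-10) and 0.47 ± 0.04 untreated (adjusted p = 4.27e-09). Msmo1 was higher in KO cells by 0.75 ± 0.05 with MG132 and by 0.46 ± 0.05 untreated. Mvd was higher in KO cells by 0.49 ± 0.09 at both treatments, although it had not responded to MG132 by this test. Cyp51, Fdft1, Fdps, Pmvk and Lss were also higher in KO cells at both treatments, by 0.18 to 0.42. Ebp and Mvk were lower in KO cells at both, Ebp by 0.54 ± 0.05 with MG132 and 0.38 ± 0.05 untreated.

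Several of these differences changed with the probe sets taken. Sc5d was lower in KO cells with its brightest probe set, by 0.48 ± 0.05 with MG132 and 0.20 ± 0.05 untreated, whereas its other 2 probe sets had higher means in KO cells (556.4 against 398 and 1708 against 1265 with MG132, and 392.9 against 193.4 and 1612 against 750.5 untreated). For Hmgcs1 the probe set used had differences of -0.04 ± 0.06 with MG132 and -0.02 ± 0.06 untreated, neither past the threshold. Every other Hmgcs1 probe set had lower means in KO cells than in WT cells at both treatments. Among these, 1 averaged 8573 in KO cells and 16440 in WT cells with MG132, and 7197 and 12500 untreated. Another averaged 14750 in KO cells and 17860 in WT cells with MG132, and 12250 and 14390 untreated. The mean over all probe sets, which takes in dim ones, gave untreated differences of -0.03 for Fdps, -0.01 for Fdft1 and -0.15 for Msmo1. None of these was past the threshold. With MG132 it gave 0.12 for Fdps and 0.13 for Fdft1, also short of it, and it gave Hmgcs1 as lower in KO cells (-0.37 with MG132, -0.46 untreated). The untreated Lss difference did not pass after median centring, without KO untreated replicate 2 (0.13) or without WT untreated replicate 1 (0.14), nor did its difference with MG132 under the mean over all probe sets (0.24). A second bright Fdft1 probe set had higher means in KO than in WT cells, 9243 against 8611 with MG132 and 6400 against 5201 untreated. So did a second Lss probe set, 1160 against 875.9 with MG132 and 895.6 against 665.9 untreated. The cause was not tested.

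Of the transport genes, Abca1 differed most between the genotypes, by -1.60 ± 0.12 with MG132 (adjusted p = 3.85e-10) and -1.67 ± 0.12 untreated (adjusted p = 1.99e-10). Npc1 was lower in KO cells by 0.56 ± 0.10 at both treatments, Npc2 by 0.44 ± 0.08 with MG132 and 0.46 ± 0.08 untreated, and Stard4 by 0.57 ± 0.08 with MG132 and 0.29 ± 0.08 untreated. Acss2 was the 1 fatty acid gene lower in KO cells, by 1.37 ± 0.11 with MG132 (adjusted p = 1.49e-09) and 0.48 ± 0.11 untreated (adjusted p = 0.00104), the second of which was -0.13 and did not pass with the mean over all probe sets. Among the others, Scd2 was higher by 0.55 ± 0.05 with MG132 and 0.30 ± 0.05 untreated, and Fasn by 0.35 ± 0.06 and 0.27 ± 0.06. Elovl6 had a difference of 0.18 ± 0.09 with MG132 and -0.11 ± 0.09 untreated, neither past the threshold.

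All 5 sensing genes differed between the genotypes in untreated cells, against a background of 28.6% of all tested genes higher and 26.9% lower. With MG132 1 of the 5 differed, against 30.7% higher and 28.1% lower. In untreated cells Scap (0.39 ± 0.07), Srebf2 (0.49 ± 0.10) and Insig2 (0.27 ± 0.05) were higher in KO cells, and Insig1 (-0.40 ± 0.05) and Srebf1 (-0.32 ± 0.11) were lower. With MG132 Insig1 alone of the 5 passed the test, now higher in KO cells, by 0.17 ± 0.05 (adjusted p = 0.0127), although the mean over all probe sets also gave Insig2 as lower (-0.25) and Srebf2 as higher (0.30). Scap differed by 0.04 ± 0.07 (adjusted p = 0.678), Insig2 by -0.05 ± 0.05 (adjusted p = 0.399), Srebf1 by -0.08 ± 0.11 (adjusted p = 0.57) and Srebf2 by 0.19 ± 0.10 (adjusted p = 0.11), which passed after median centring (0.28) and in a fit of the compared groups alone. The change between the treatments is the same interaction reported above, which passed for Insig1, Insig2 and Scap and not for Srebf1 or Srebf2. With that mean the untreated differences of Scap (0.11) and Insig2 (0.10) did not pass. The untreated Srebf1 difference lost its call without KO untreated replicate 1 (-0.26) or replicate 3 (-0.28).

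The level of each role was also taken on each array. Each gene was centred on its mean over the 16 arrays, and the median over the genes of a role was taken. Sterol synthesis read 0.38, 0.35, 0.25 and 0.22 in KO cells with MG132, against -0.15, -0.13, -0.11 and -0.18 in untreated KO cells. In WT cells it read 0.09, 0.12, 0.28 and 0.20 with MG132, against -0.35, -0.30, -0.32 and -0.27 untreated. No treated array overlapped an untreated one of its genotype. Fatty acid synthesis read 0.20, 0.26, 0.23 and 0.23 in KO cells with MG132, against -0.01, 0.16, -0.03 and 0.03 in untreated KO cells. In WT cells it read -0.11, -0.05, -0.04 and 0.01 with MG132, against -0.04, -0.26, -0.23 and -0.16 untreated, where the groups overlapped.

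**Figure D5:**
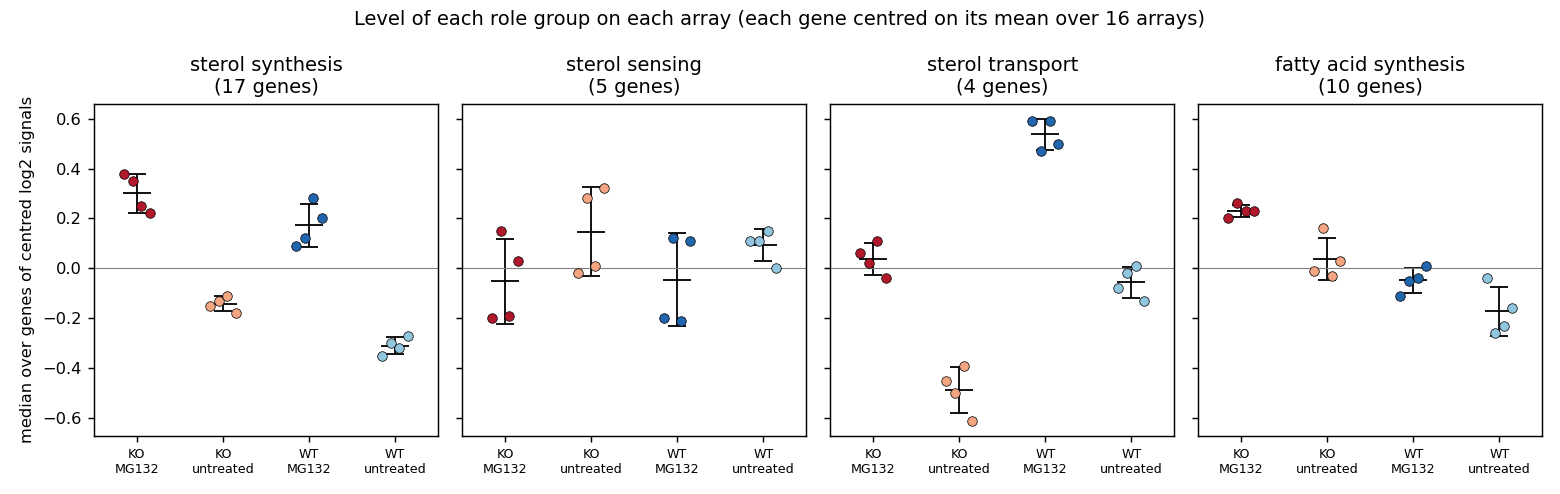
Level of the 4 roles on each array: the median over a role's genes of log2 signals, each centred on its mean over the 16 arrays (y axis), by group from KO with MG132 at the left to WT untreated at the right; points are arrays, and bars are the mean and SD of 4 arrays. Sterol synthesis separates treated from untreated arrays in both genotypes, sterol transport separates the treatments within each genotype and the genotypes within each treatment, and sterol sensing overlaps across groups.

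Other genes of the same pathways, from lists chosen alongside the members, gave a mixed picture, to be read against the background of 25.7% of all tested genes higher and 36.8% lower in KO cells and of 27.2% higher and 36.9% lower in WT cells. Of 20 further sterol genes 14 were tested: 2 rose and 5 fell in KO cells (median 0.07), and 4 rose and 6 fell in WT cells (median -0.19), shares near that background. The proteases that cut SREBP in the Golgi both fell: Mbtps2 by 0.87 ± 0.06 in KO cells and by 0.83 ± 0.06 in WT cells, and Mbtps1 by 0.47 ± 0.08 in KO cells and by 0.63 ± 0.08 in WT cells. These falls ran in the same direction as that of Scap. Tmem97, a sterol-regulated membrane protein, fell by 0.27 ± 0.06 in KO cells and by 0.41 ± 0.06 in WT cells. Of the 8 tested genes of the isoprenoid branch, which uses farnesyl diphosphate for other products, 1 rose and 1 fell in KO cells and 3 rose and 3 fell in WT cells. Pdss2, of coenzyme Q synthesis, changed by 0.26 ± 0.12 in KO cells (adjusted p = 0.0708) and fell by 0.75 ± 0.12 in WT cells. The prenyltransferase gene Pggt1b and the protease gene Rce1 had values of 0.11 ± 0.11 and 0.15 ± 0.09 in KO cells, neither past the threshold, and rose by 0.58 ± 0.11 and 0.47 ± 0.09 in WT cells.

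Of 24 tested genes of other fatty acid and glycerolipid steps, 9 rose and 6 fell in KO cells (median 0.11), and 13 rose and 6 fell in WT cells (median 0.24). Plin2, a coat protein of lipid droplets, rose by 0.69 ± 0.05 in KO cells and 1.38 ± 0.05 in WT cells, a difference of -0.69 ± 0.07 (adjusted p = 3.65e-07). Agpat2, which makes phosphatidic acid, fell by 0.52 ± 0.08 in KO cells and fell by 1.57 ± 0.08 in WT cells, and Acsl5, which activates fatty acids, fell by 0.50 ± 0.04 in KO cells and by 0.74 ± 0.04 in WT cells. Fatty acid oxidation, the pathway that breaks down what these enzymes make, moved the other way. Of its 14 tested genes 1 rose and 11 fell in KO cells (median -0.47), and 0 rose and 12 fell in WT cells (median -0.32), read against the 36.8% and 36.9% of all tested genes that fell. Acadm, an acyl-CoA dehydrogenase, fell by 0.81 ± 0.06 in KO cells and by 0.80 ± 0.06 in WT cells. Acads, another acyl-CoA dehydrogenase, fell by 0.57 ± 0.11 in KO cells and by 0.98 ± 0.11 in WT cells. Cpt2, which hands fatty acids on inside mitochondria, fell by 1.05 ± 0.12 in KO cells and by 0.89 ± 0.12 in WT cells.

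Measures of the whole series stood as follows. Ddit3 read 342.2 to 429.8 in KO cells with MG132 and 343.1 to 393.2 in untreated KO cells, against 6891 to 8181 and 886.9 to 1127 in WT cells with and without MG132. The position of its probe set relative to the deletion is not known here. Array medians were 90.1 to 113.4 signal units, and the correlation between arrays of a group was 0.9851 to 0.9916. The ratio of the 3′ to the 5′ probe set of Actb, a sign of RNA integrity and labelling, was 1.187 to 1.23 in KO cells with MG132, against 1.141 to 1.164 untreated, and 1.193 to 1.265 in WT cells with MG132, against 1.111 to 1.192 untreated. The same ratio for Gapdh overlapped between the treatments. It was 0.79 to 0.84 in KO cells with MG132, against 0.825 to 0.839 untreated. In WT cells it was 0.805 to 0.877 with MG132, against 0.833 to 0.875 untreated. The summed signals of 11 fibroblast markers were 102900 to 107700 in KO cells with MG132, 124000 to 138000 in untreated KO cells, 118900 to 129700 in WT cells with MG132 and 123800 to 141100 in untreated WT cells, though Pdgfra was low in KO cells and Thy1 and Dcn were low in WT cells. Of the 10 tested, 1 rose and 6 fell with MG132 in KO cells, and 3 rose and 5 fell in WT cells. The background was 25.7% of all tested genes higher and 36.8% lower in KO cells, and 27.2% and 36.9% in WT cells. Col3a1 changed by -2.19 ± 0.07 in KO cells and -1.36 ± 0.07 in WT cells. In the same order Pdgfrb changed by -0.98 ± 0.08 and -1.43 ± 0.08, and Fn1 by 0.22 ± 0.05 and 0.58 ± 0.05. The sum of 6 fat cell markers, of which 3 passed the filter and Adipoq stayed under it, was 418.4 to 495.2 in KO cells and 1216 to 1340 in WT cells with MG132, and 386 to 517.9 in KO cells and 1098 to 1155 in WT cells untreated. The sum of 6 epithelial markers, of which 3 passed the filter, was 529.7 to 703.3 in KO cells with MG132, against 258.1 to 457.4 untreated, and 818.9 to 1182 in WT cells with MG132, against 275.1 to 447.3 untreated, with Krt14 changing by 1.55 ± 0.32 in KO cells and 4.22 ± 0.32 in WT cells. The sum of 6 macrophage markers, of which Cd68 and Csf1r passed the filter, was 491.9 to 635.8 in KO cells with MG132, against 402.1 to 554.3 untreated, and 672 to 761.7 in WT cells with MG132, against 474.6 to 566.4 untreated. Cd68 changed by -0.02 ± 0.19 in KO cells (adjusted p = 0.928) and rose by 0.63 ± 0.19 in WT cells, and Csf1r rose by 0.52 ± 0.16 in KO cells and 0.47 ± 0.16 in WT cells. The sum of 5 liver cell markers, of which 1 passed the filter, was 202.7 to 238.4 in KO cells with MG132, against 221 to 294.4 untreated, and 57.81 to 206.3 in WT cells with MG132, against 115.2 to 203.5 untreated. In such bulk samples fewer cells of a type and less RNA per cell cannot be told apart, and the part of these markers and of the Actb ratio in the results above was not tested.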

How the data were processed

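Total RNA from 16 culture plates was extracted with Trizol and an RNeasy clean-up, labelled with the 3′ IVT Express kit and hybridised to Affymetrix arrays, per the labels. The deposited values are linear intensities, MAS5 signals per the submitters' processing notes; their version was not given in the sources used here. Of 45101 probe sets, 34945 matched 1 gene in GEO's platform annotation, 932 matched several and 9160 were unnamed.

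Per gene the probe set with the highest mean was kept. Genes above the array median on at least 4 of 16 arrays were tested, 11451 of 18193. Values were log2(signal + 16), which understates changes of dim genes, and limma 3.58.1 (R 4.3.3) fitted the 4 groups together with Benjamini-Hochberg adjustment over all tested genes at 0.05. All adjusted p-values and the words rose, fell, higher and lower in counts refer to that fit. The fit was checked on simulated data. Signals are printed to 4 significant digits. The number of arrays limits the precision.

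Every member is named. Values on each array are given for the members with the largest changes in each role and for the SREBP and INSIG genes. Up to 3 genes are named from each further pathway list, those with the smallest adjusted p in WT cells. The cell type markers named were not all picked by that rule. The members and lists were chosen with earlier results of these data known. Alternatives were other pseudocounts, filters, scalings, probe set rules and samples in the fit, the replicate number as a block, and each array left out.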

Additional observations from a re-analysis of the deposited data

Results flagged for a closer look

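The MG132 response differed between the genotypes, by the test of the difference itself (limma), for 10 members, against a background of 14.2% of all tested genes with a positive and 14.1% with a negative difference, so these counts are near the background. KO minus WT was 0.57 for Insig1, 0.33 for Acaca, 0.30 for Msmo1 and 0.25 for Scd2. It was -0.89 for Acss2, -0.52 for Hsd17b7, -0.48 for Dhcr7, -0.36 for Scap, -0.32 for Insig2 and -0.28 for Sc5d.

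Some arrays stood apart from the other 3 of their group by Dixon's criterion, in 9 of 144 gene and group combinations, where chance alone gives about 1 in 20. In KO cells with MG132 the lowest Sqle array read 11660, against 11840 to 11880 on the others. In untreated KO cells the highest Insig1 array read 1636, against 1527 to 1544, and the highest Fads2 array 3321, against 3027 to 3072. In WT cells with MG132 the lowest Acaca array read 1180, against 1354 to 1387, and the lowest Fads1 array 5003, against 5427 to 5516. In untreated WT cells the lowest Stard4 array read 3557, against 4539 to 4578. In the same group the highest arrays read 8740 for Acly, against 7983 to 7995, 27070 for Scd2, against 24190 to 24590, and 6193 for Fads1, against 4214 to 4414. The Stard4, Acly and Fads1 arrays are all WT untreated replicate 1, and the cause was not tested.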

How the results depend on the processing

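Of 180 values for single genes and contrasts, 114 kept their direction and their side of the threshold under every alternative run, as did 80 of the 124 calls; of 4994 recomputed values 12 reversed, 82 lost a call and 59 gained one. Centring on the tested genes, added after seeing the data, moved the median of all tested genes to 0.071 in KO cells and 0.133 in WT cells. It gave response medians of 0.62 (KO) and 0.64 (WT) for sterol synthesis and 0.27 (KO) and 0.40 (WT) for fatty acids, untreated genotype medians of 0.25 and 0.34 for those branches, 10 negative differences between the responses, and WT changes of 0.17 for Fasn and 0.15 for Scd2. Median centring left 2 negative differences, with median differences of 0.09 (sterol) and 0.15 (fatty acid), and genotype medians with MG132 of 0.33 and 0.28. Quantile normalization gave 0.03 for fatty acids in KO cells and 0.18 for sterol synthesis between genotypes with MG132. The mean over all probe sets gave sterol medians of 0.38 (KO response), 0.26 (WT response), 0.13 (genotype, MG132) and -0.01 (genotype, untreated), and fatty acid medians of 0.09 (WT response), -0.07 (difference) and 0.18 (genotype, untreated), with 2 positive differences and 13 members higher in untreated KO cells. It reversed Msmo1 (-0.38) and Acaca (0.01) in WT cells, the Acaca difference (-0.10), Fdps (-0.03), Fdft1 (-0.01), Msmo1 (-0.15) and Sc5d (0.62) between untreated genotypes, and Sc5d with MG132 (0.14). Probe sets without a suffix gave sterol medians of -0.07 (difference), 0.05 (genotype, MG132) and 0.00 (genotype, untreated), and Msmo1 values of -1.04 in WT cells and -0.76 between untreated genotypes. That Msmo1 probe set was dim, with group means of 69.22 to 159.1, against 9363 to 19040 for the one used. The means for Fdps and Fdft1 took in probe sets that were above the array median on 0 of 16 arrays. The cause of the shifts was not tested. Leaving out 1 array gave WT fatty acid medians of 0.17 to 0.28, the highest without WT untreated replicate 1. The fit on the compared groups alone gives no value for the difference between the responses.

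Same-numbered arrays of different groups had correlations of -0.07 to 0.161 in their deviations (median 0.0395, 24 pairs, 5 over 0.1). Arrays with other numbers had correlations of -0.169 to 0.127 (median -0.0195, 72 pairs, 5 over 0.1). By mean correlation, 13 of 16 arrays went best with their own number. A structure shared by number can therefore not be set aside. Its cause was not tested, and the main fit did not model it. With the replicate number as a block, 21 members rose and 8 fell in KO cells, 22 rose and 10 fell in WT cells, and 5 differences were positive and 7 negative. The block also made the WT change of Srebf1 (-0.23), the difference between the responses of Srebf1 (0.24) and Srebf2 (-0.31), and the Srebf2 genotype difference with MG132 (0.19) pass. With that block, KO cells were higher for 17 and lower for 10 members with MG132, and higher for 19 and lower for 10 untreated.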
